A study of Mus musculus with 10 samples.

Results

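Ccl6 and Ccl9 are a pair of mouse CC chemokines, small secreted proteins that attract leukocytes, and both were followed here in macrophages of tumours and of the peritoneum. The genes were chosen by symbol, as every array feature whose only gene symbol in the platform table is Ccl6 or Ccl9. This gave 1 feature for each, 2 of the 9596 features on the arrays, and 2 of the 6795 named genes. Their low values in tumour macrophages without treatment were known when they were chosen, so that comparison is described without a test.

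The study used 10 cDNA arrays, each hybridised with the total RNA of 2 conditions, 1 in each colour channel, and compared 4 conditions. TAM with LPS were tumour-associated macrophages (TAM), the adherent cells of a harvest made 3 weeks after a tumour was implanted, cultured with lipopolysaccharide (LPS, 100 ng/mL) for 4 hours. LPS is part of the outer membrane of bacteria and a strong activator of macrophages. Untreated TAM were the same kind of cells without LPS, and PEC with LPS and untreated PEC were adherent peritoneal exudate cells, labelled as peritoneal macrophages, with and without the same treatment. All mice were of the strain labelled C57/6N black and 8 weeks old, and PEC set against TAM were also taken 3 weeks after a tumour was implanted, while the labels of PEC1 and PEC2 name no tumour. Untreated TAM were set against untreated PEC on 4 arrays (TAM-b, TAM-3, TAM-8 and TAM-2R), TAM with LPS against PEC with LPS on 2 (TAM1 and TAM7), PEC with LPS against untreated PEC on 2 (PEC1 and PEC2), and TAM with LPS against untreated TAM on 2 (TAM-trial and TAM-16). No source used here names the tumour or the purity of the adherent cells. The labels do not say that the arrays of a comparison came from separate mice or cultures, so a p-value covers the spread of these arrays alone, and that spread may be technical.

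CC chemokines act on receptors of leukocytes that couple to G proteins, and in mice Ccl6 and Ccl9 are both ligands of Ccr1. They belong to a group of closely related genes in a chemokine cluster, together with the inflammatory chemokines Ccl3 and Ccl4. Ccl6 is known as a gene that interleukin 4 raises in mouse macrophages, and Ccl9 as a chemokine that macrophages and other myeloid cells release without stimulation. Both are secreted with a longer amino terminus than most chemokines, and cleavage of that end by proteases increases their activity on Ccr1.

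The windows in front of both genes are shown because the genes lie side by side and lay low on the same 6 arrays. In the RefSeq annotation of GRCm38.p6, Ccl9 and Ccl6 are neighbours among the protein-coding genes of chromosome 11, with Ccl5 on one side and Ccl3 and Ccl4 on the other. The 250 bases before each start are printed from RefSeq, 5′ to 3′ on the minus strand, at chr11:83593088-83593337 for Ccl6 and at chr11:83578637-83578886 for Ccl9. Capitals mark the runs of at least 11 bases that both windows share.
Ccl6: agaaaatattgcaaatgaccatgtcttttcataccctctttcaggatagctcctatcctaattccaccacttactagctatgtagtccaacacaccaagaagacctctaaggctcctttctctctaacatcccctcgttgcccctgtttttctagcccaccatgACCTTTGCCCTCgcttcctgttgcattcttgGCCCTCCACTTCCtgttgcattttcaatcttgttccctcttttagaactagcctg
Ccl9: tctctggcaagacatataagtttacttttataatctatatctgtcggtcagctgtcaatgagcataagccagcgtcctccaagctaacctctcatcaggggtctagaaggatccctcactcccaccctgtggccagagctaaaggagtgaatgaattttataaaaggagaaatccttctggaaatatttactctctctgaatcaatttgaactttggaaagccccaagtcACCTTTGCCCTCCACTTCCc

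Of the 286 columns of a global alignment of both windows, 135 held the same base (47.2%). Other pairs of windows were not aligned, so this share has no background and is not read as likeness. The first shared run was 12 bases long and lay at positions -86 to -75 in Ccl6 and -20 to -9 in Ccl9, where -1 is the base before the start. The second was 13 bases long and lay at -55 to -43 in Ccl6 and -14 to -2 in Ccl9, so that both runs overlap in Ccl9 and stand apart in Ccl6. They occur in 4 and 5 of 32851 such windows of the mouse genome, on either strand and with those of Ccl6 and Ccl9 counted. Motifs were searched on both strands, and a match is only a match of letters. The NF-kB motif, a site for the Rel proteins that LPS activates, matched once in Ccl9, at -35 on the other strand, and not in Ccl6, and 7.25% of all windows hold it. The AP-1 search pattern TGANTCA, in which N is any base, matched in Ccl9 at -53 on both strands, which is 1 place. It had no match in Ccl6 (6.75% of all windows). The TATA box TATAAA had 3 matches in Ccl9, of which those at -94 and -92 overlap, and no match in Ccl6 (12.4%). The ETS motif AGGAAGT matched once in Ccl6, at -48 to -42 on the other strand and overlapping the second shared run, and not in Ccl9 (7.69%). Neither window held the PU.1 core GAGGAA (23.3%), the STAT6 motif (5.85%) or the C/EBP motif TTGCNNAA (9.56%).

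Each value below is the log ratio of the channels of an array as the authors deposited it, taken as log2, so that 1 unit is a doubling. Dyes are missing from the labels, which makes each direction likely rather than certain. Channel 2 was read over channel 1 because 25 of 27 NF-kB and interferon genes, which LPS is known to induce, were then above 0 on PEC1 and 27 of 27 on PEC2 (median 2.05). TAM-2R and TAM1 were labelled with the channels exchanged and were turned to TAM over PEC. After turning, TAM-2R correlated across all features at r = 0.08 with TAM-b, 0.036 with TAM-3 and 0.101 with TAM-8, and TAM1 with TAM7 at r = 0.293. Pairs of arrays that were not exchanged had r = 0.329 for TAM-b and TAM-8, 0.269 for PEC1 and PEC2, 0.096 for TAM-trial and TAM-16, 0.08 for TAM-b and TAM-3 and 0.054 for TAM-3 and TAM-8. For both genes the deposited sign on the exchanged arrays was the opposite of that on the others. Ccl6 stood at 2.73 on TAM-2R and 4.17 on TAM1 as deposited, and Ccl9 at 2.24 and 3.27, whereas both were below 0 on TAM-b, TAM-3, TAM-8 and TAM7.

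Without LPS, Ccl6 was lower in TAM than in PEC on each of the 4 arrays. Its log2 ratio of untreated TAM over untreated PEC was -3.61 on TAM-b, -2.73 on TAM-2R, -2.70 on TAM-3 and -3.96 on TAM-8. The mean was -3.25 ± 0.64 (SD, n = 4), or 9.51-fold lower in TAM. TAM-b and TAM-8 lay about 1 unit below TAM-2R and TAM-3. Ccl6 was the 18th lowest of 8905 genes and unnamed features on TAM-b and the 15th lowest on TAM-8, but only the 422nd on TAM-2R and the 382nd on TAM-3. Among the 25 measured chemokines it had the lowest mean.

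Ccl9 was also lower in untreated TAM on each array, by less than Ccl6. Its log2 ratio was -1.81 on TAM-b, -2.24 on TAM-2R, -0.79 on TAM-3 and -2.41 on TAM-8. The mean was -1.81 ± 0.73 (SD, n = 4), or 3.51-fold lower in TAM. TAM-3 lay nearest to 0, where 29.5% of all tested features were lower still. On each of the 4 arrays the log2 ratio of Ccl9 was above that of Ccl6, by 1.80 on TAM-b, 0.49 on TAM-2R, 1.91 on TAM-3 and 1.55 on TAM-8. For scale, 10.8% of all tested features were below 0 on every one of these arrays. In this comparison 0.46% of the 8905 passed an adjusted p of 0.05 by limma. As both genes were chosen with these values known, nothing is read from this share.

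**Figure D1:**
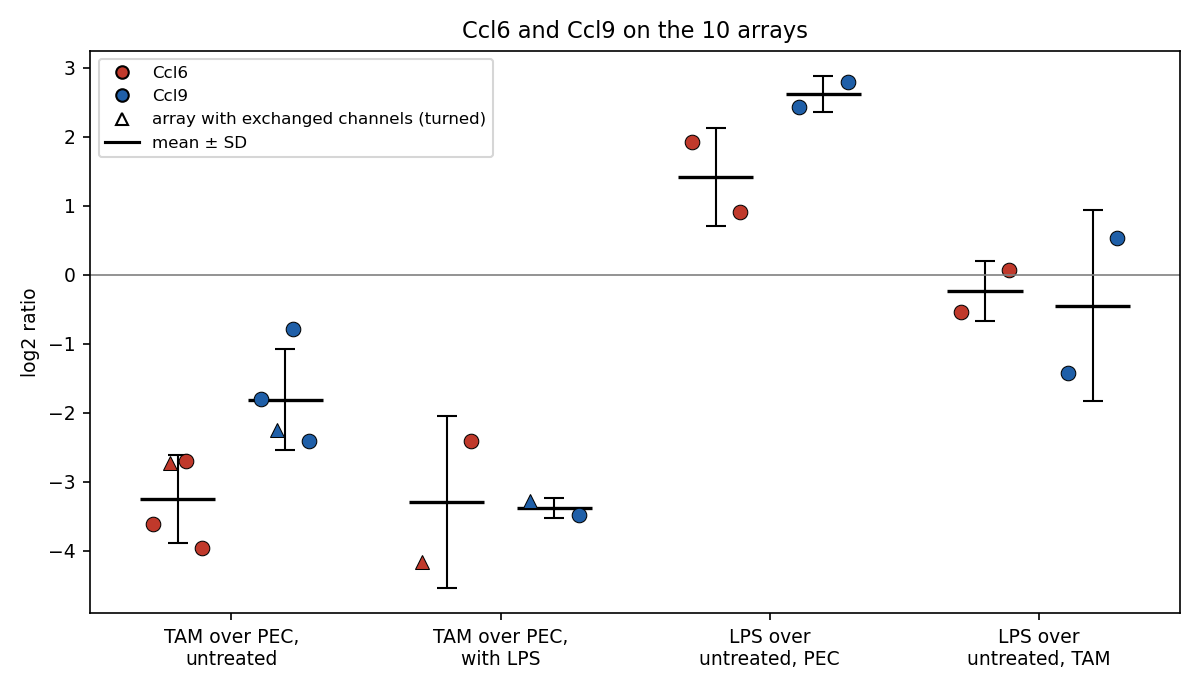
Log2 ratios of Ccl6 (red) and Ccl9 (blue) on each of the 10 arrays, by comparison. Points are arrays, triangles are arrays with exchanged channels after turning, and the black lines are the mean ± SD of 4 or 2 arrays. Both genes lie below 0 on all 6 arrays of TAM over PEC and above 0 on both arrays of LPS in PEC, and both straddle 0 in TAM.

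With LPS in both cell types, the TAM over PEC ratios of both genes were about equally low. The log2 ratio of Ccl6 in TAM with LPS over PEC with LPS was -4.17 on TAM1 and -2.41 on TAM7. Its mean was -3.29 ± 1.24 (SD, n = 2), or 9.79-fold lower in TAM, and the adjusted p of limma was 0.0557. The log2 ratio of Ccl9 was -3.27 on TAM1 and -3.48 on TAM7. Its mean was -3.38 ± 0.15 (SD, n = 2), or 10.4-fold lower in TAM, and its adjusted p was also 0.0557. Neither gene passed the threshold of 0.05, which 0.0674% of the 8905 tested features did, and 28.2% of them were below 0 on both arrays. Both genes passed in some other fits given with the processing. The spread of Ccl6 between its arrays was larger than that of Ccl9, whose arrays lay close together. Ccl6 was below Ccl9 on TAM1 and above it on TAM7, so the order of the genes seen on the arrays of untreated cells was found on 1 of these 2 arrays.

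The direction of this comparison hangs on the turned array. With TAM-2R and TAM1 left as deposited, the mean of TAM with LPS over PEC with LPS was 0.88 for Ccl6 and -0.10 for Ccl9, and the mean of untreated TAM over PEC was -1.89 for Ccl6 and -0.69 for Ccl9. On TAM7 alone, which was not exchanged, the ratios were those given above. Over all 6 arrays of TAM over PEC both genes were below 0 with the turned values, as were 4.97% of all tested features.

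Many genes of the macrophage and peritoneal lists also had ratios below 0 in TAM over PEC, and their part in the values of Ccl6 and Ccl9 was not tested. Of the 15 genes of a macrophage identity list 9 were measured, and 8 of the 9 had a mean below 0 in untreated TAM over PEC (median -0.90, array medians from -2.32 to -0.05), while all 9 had one in TAM over PEC with LPS (median -1.75, array medians from -2.01 to -1.49). None of the 9 passed the test in either comparison. The median of the list was -1.25 on TAM-b, -0.28 on TAM-2R, -0.05 on TAM-3 and -2.32 on TAM-8. It was lowest on TAM-8 and TAM-b, where Ccl6 was also lowest. Ccl9 had another order, with -2.41 on TAM-8, -2.24 on TAM-2R and -1.81 on TAM-b. Of the peritoneal macrophage list, 9 of 15 were measured, with a median of -1.59 in untreated TAM over PEC and 3 of the 9 above 0. Cd5l, Fcna, Saa3 and Slpi, 4 of the 9, fell there, as did 0.337% of all tested features. The list was chosen with earlier results of these data known, so nothing is read from this share. With LPS the median of the list was -0.29, 3 were above 0 and Fcna fell. Of the fibroblast and stroma list 10 of 15 were measured, with a median of 1.20 in untreated TAM over PEC and array medians from -0.44 to 2.40, and 10 of 15 of the neutrophil list had a median of 0.88. No member of these last lists passed. In bulk RNA such as this, fewer cells of a type and less RNA per cell cannot be told apart, and log ratios hold no level, so which cells made Ccl6 and Ccl9 could not be checked.

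In PEC, both genes had ratios above 0 after LPS, Ccl9 more so than Ccl6. The log2 ratio of Ccl9 in PEC with LPS over untreated PEC was 2.43 on PEC1 and 2.80 on PEC2. Its mean was 2.62 ± 0.26 (SD, n = 2), or 6.14-fold, with a 95% interval from 2.60-fold to 14.5-fold by limma and an adjusted p of 0.251. It lay above 98.4% of all tested features on PEC1 and above 98.8% on PEC2. The log2 ratio of Ccl6 was 1.92 on PEC1 and 0.91 on PEC2. Its mean was 1.42 ± 0.71 (SD, n = 2), or 2.67-fold, with an interval from 1.15-fold to 6.23-fold and an adjusted p of 0.51. Without PEC1 the mean of Ccl6 was 0.91. Neither gene passed the threshold, which 0.0112% of all tested features did, and 31.4% were above 0 on both arrays. Both arrays had the same channel order, so a dye effect of a gene would be part of its mean.

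In TAM, neither gene had a ratio of one sign after LPS. The log2 ratio of Ccl6 in TAM with LPS over untreated TAM was -0.54 on TAM-trial and 0.07 on TAM-16. Its mean was -0.24 ± 0.43 (SD, n = 2; adjusted p of limma 0.962), with an interval from -1.46 to 0.98. The log2 ratio of Ccl9 was -1.42 on TAM-trial and 0.54 on TAM-16. Its mean was -0.44 ± 1.39 (SD, n = 2; adjusted p 0.936), with an interval from -1.68 to 0.79. The arrays disagreed in sign for both genes, and by more for Ccl9. The macrophage identity list differed between these arrays as well, with a median of -1.88 on TAM-trial and 0.19 on TAM-16. No gene or feature passed the test in this comparison (0%), by limma with Benjamini-Hochberg adjustment, and 497 (5.58%) had an unadjusted p under 0.05.

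The LPS ratio was lower in TAM than in PEC for both genes, but the difference did not pass the test. For Ccl9 it was -3.06 ± 0.78 (TAM minus PEC, standard error, 4 arrays) with an adjusted p of 0.719, and for Ccl6 -1.65 ± 0.77 with an adjusted p of 0.74. The unadjusted p-values of limma were 0.003 and 0.0585. The 95% interval was -4.81 to -1.31 for Ccl9 and -3.38 to 0.07 for Ccl6. None of the 8905 tested features passed (0%), and 612 (6.87%) had an unadjusted p under 0.05. All 9 measured macrophage identity genes had a difference below 0 too (median -1.71), against 55.3% of all tested features.

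A like difference can be formed from the other 6 arrays, as TAM over PEC with LPS minus TAM over PEC without it. That came to -1.56 for Ccl9 and -0.04 for Ccl6. Both routes were thus 1.499 ± 1.04 apart for Ccl9 and 1.61 ± 1.02 apart for Ccl6 (standard errors), in the same direction. The labels of PEC1 and PEC2 name no tumour, unlike those of PEC set against TAM, so the routes need not measure the same difference. What made the gap was not tested. A loop fit with a dye term takes all PEC alike, whether or not their labels name a tumour. It joins all 10 arrays into 1 level for each condition, given relative to untreated PEC. For Ccl6 these levels were 0.90 ± 0.67 in PEC with LPS, -2.86 ± 0.74 in TAM with LPS and -3.04 ± 0.43 in untreated TAM (standard errors). For Ccl9 they were 2.14 ± 0.67 in PEC with LPS, -1.62 ± 0.43 in untreated TAM and -1.67 ± 0.74 in TAM with LPS. Both genes thus had the order PEC with LPS, untreated PEC and then both TAM conditions, and the TAM conditions lay within 1 standard error of each other. The step between PEC with LPS and untreated PEC did not pass the test for Ccl6 (adjusted p of limma 0.82) or for Ccl9 (0.699) in that fit.

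**Figure D2:**
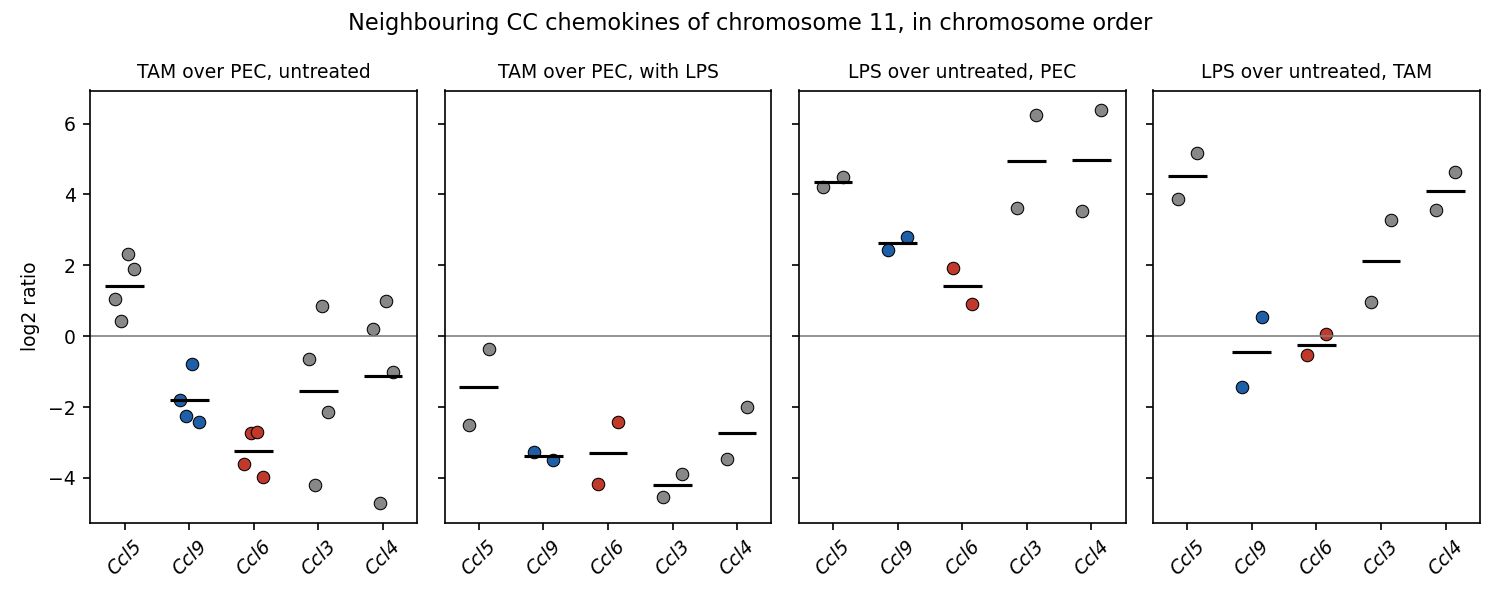
Log2 ratios of 5 neighbouring CC chemokine genes of chromosome 11, in chromosome order, in the 4 comparisons. Points are arrays, black lines are means, and Ccl9 (blue) and Ccl6 (red) stand between Ccl5 on the left and Ccl3 and Ccl4 on the right. In TAM the LPS ratios of Ccl5, Ccl3 and Ccl4 lie above 0 on both arrays and those of Ccl9 and Ccl6 do not.

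The neighbouring genes Ccl3, Ccl4 and Ccl5, inflammatory chemokines that LPS is known to induce, had ratios of the same sign as Ccl6 and Ccl9 after LPS in PEC, and ratios above 0 after LPS in TAM. In PEC with LPS over untreated PEC, all 5 genes were above 0 on both arrays. The means were 4.94 for Ccl3, 4.96 for Ccl4, the highest of the measured chemokines, and 4.35 for Ccl5 (adjusted p of limma from 0.135 to 0.302). Ccl3, Ccl4 and Ccl5 are among the genes by which the channel direction was read on PEC1 and PEC2. Their sign in PEC is therefore partly set by that reading, and nothing is read from the shared sign. In TAM with LPS over untreated TAM, Ccl5, which attracts T cells, had 3.88 and 5.18 on its arrays, Ccl4 3.56 and 4.62, and Ccl3 0.97 and 3.28, with adjusted p-values of limma from 0.145 to 0.827. These ratios were above 0 on both arrays, unlike those of Ccl6 and Ccl9. In untreated TAM over PEC, Ccl3 ranged from -4.20 to 0.86 and Ccl4 from -4.71 to 1.001, with the lowest value of each on TAM-2R, whereas Ccl5 was above 0 on all 4 arrays (mean 1.42 ± 0.85, SD, n = 4, adjusted p 0.221). In TAM over PEC with LPS, all 5 genes were below 0 on both arrays, and Ccl3 had the lowest mean of the chemokines (-4.21 ± 0.47, SD, n = 2, adjusted p 0.242). Differences between these genes were not tested.

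Over the chemokines as a whole the values were nearer to 0. Of 40 listed chemokines 25 were measured, and the 23 other than Ccl6 and Ccl9 had a median of 0.28 in untreated TAM over PEC, with 13 above 0, beside -0.02 over all tested features. None of the 23 passed limma's test there, as 0.46% of all tested features did. An unadjusted p under 0.05 was found for 4 of the 23, and for 1274 of all 8905 tested features. Their medians were -0.17 in TAM over PEC with LPS, 0.41 for LPS in PEC and 0.12 for LPS in TAM, beside 0.08, -0.04 and -0.13 over all tested features. None of the 25 passed in those comparisons. With an unadjusted p under 0.05 there were 8, 7 and 3 of the 25, where all tested features gave 8.99%, 8.14% and 5.58%. Cxcl10, which interferon induces, had the highest mean in untreated TAM (2.66 ± 0.90, SD, n = 4, adjusted p 0.0505) and was at -1.80 ± 0.01 in TAM over PEC with LPS (SD, n = 2, adjusted p 0.454). The other extremes were Cx3cl1, a chemokine anchored in the membrane, highest in TAM over PEC with LPS (1.03), Ccl17, a ligand of Ccr4, lowest for LPS in PEC (-0.70), and Cxcl15, a chemokine of the lung, lowest for LPS in TAM (-1.95, with 1.09 and -4.995 on its arrays).

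On the side of the receptors, 9 of 24 listed genes were measured and none passed the test in any comparison (lowest adjusted p 0.123). Ccr1, the receptor of both chemokines, was not analysed here. The medians of the 9 were 0.25 in untreated TAM over PEC, 0.35 in TAM over PEC with LPS, 0.35 for LPS in PEC and -0.01 for LPS in TAM.

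Of the signals known to act on these genes, a list of interleukin 4, M-CSF and GM-CSF signalling genes and of their known targets held 14 measured of 22. Retnla, a target of interleukin 4 and a marker of alternatively activated macrophages, was its 1 member of 14 to fall in untreated TAM, where 0.337% of all tested features fell (-5.06 ± 1.26, SD, n = 4, adjusted p 0.0015), and none of the 14 passed elsewhere. Like Ccl6, Retnla was below 0 on all 6 arrays of TAM over PEC and above 0 on both arrays of LPS in PEC. These signs are not particular to them, as Ccl9 and other genes named below, Pltp and Ctsd among them, had the same. The median of the list was -0.19 in untreated TAM over PEC, where 6 of the 14 were above 0 and 8 below.

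Proteases that may cut chemokines or that macrophages carry in lysosomes formed a list with 11 measured of 15. The cathepsins Ctsd and Ctsb, proteases of the lysosome, fell in untreated TAM (-2.12 ± 0.64 and -2.06 ± 0.52, SD, n = 4, adjusted p 0.0367 for each), which is 2 of 11 beside 0.337% of all tested features, and 5 of the 11 were above 0. Both are also among the genes most like Ccl6 or Ccl9. That likeness was computed over all arrays, those of untreated TAM over PEC included, so it is not separate from these calls. A link of these proteases to Ccl6 or Ccl9 was not tested. No other member of the list passed in any comparison. Leaving out single arrays, the call of Ctsd was lost in all 10 fits and that of Ctsb in 7 of 10 (adjusted p of limma up to 0.144). The list had a median of -0.07 in untreated TAM over PEC, -0.89 in TAM over PEC with LPS, 1.40 for LPS in PEC and -0.10 for LPS in TAM.

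**Figure D3:**
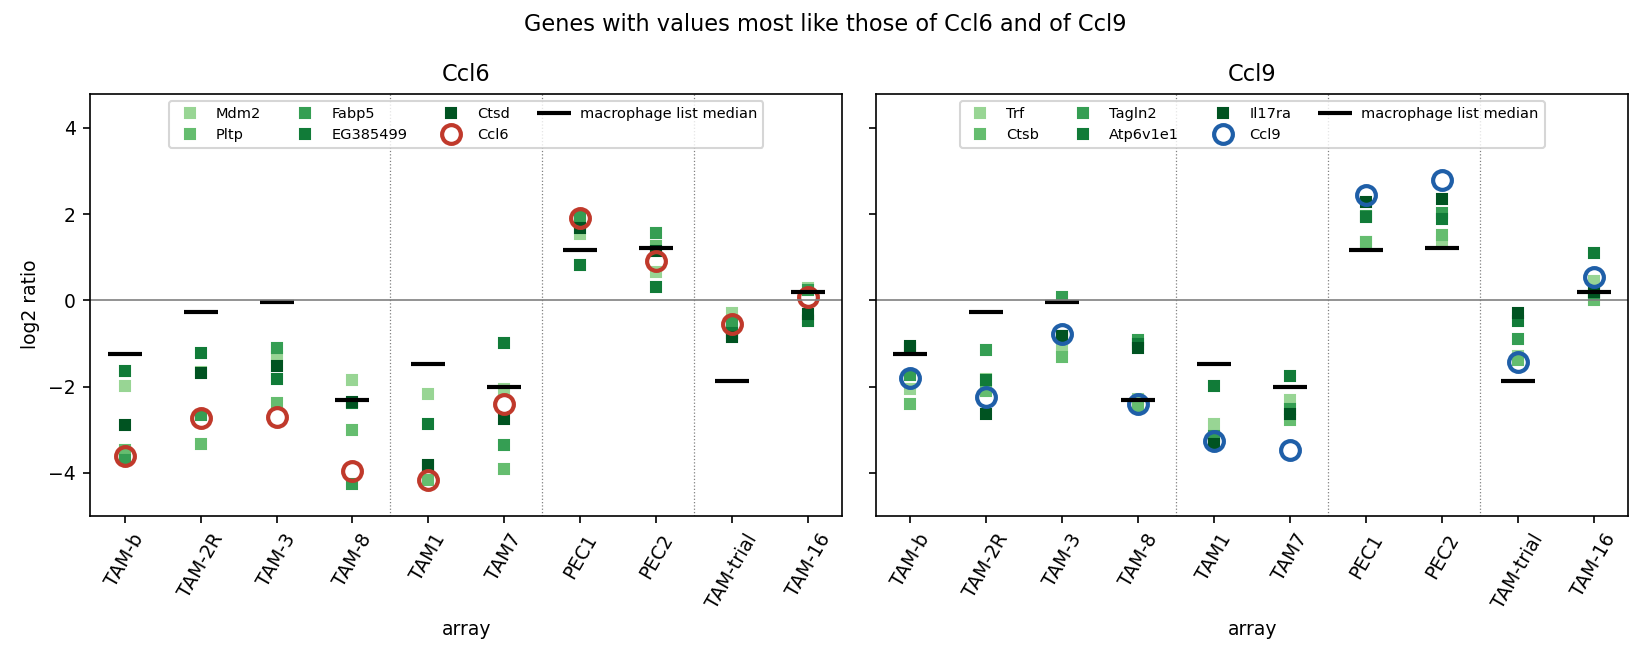
Log2 ratios on the 10 arrays, named on the x axis and divided by comparison with dotted lines, for Ccl6 (left, red circles) and Ccl9 (right, blue circles), with the 5 named genes most like each (green squares) and the median of the 9 macrophage identity genes (black bars). The like genes follow each chemokine from below 0 on the 6 TAM over PEC arrays to above 0 on PEC1 and PEC2, with the exception of Tagln2 on TAM-3 (0.07).

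The genes most like Ccl6 and Ccl9 were other genes than chemokines. Likeness was measured as the cosine (uncentred correlation) of the log2 ratios over the 10 arrays, which does not depend on the channel order and is given as a description. The arrays share conditions, and the 2 arrays of a comparison share both. The 5 genes most like Ccl6 were Mdm2, the ubiquitin ligase of p53 (0.978), Pltp, which transfers phospholipids (0.972), the fatty acid binding protein Fabp5 (0.971), EG385499, a gene model (0.971), and Ctsd (0.971). The 5 most like Ccl9 were the iron carrier transferrin, Trf (0.968), Ctsb (0.963), the actin-binding protein Tagln2 (0.963), Atp6v1e1, a subunit of the proton pump of lysosomes (0.962), and Il17ra, the interleukin 17 receptor chain (0.961).

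Ccl6 and Ccl9 themselves had a cosine of 0.879. Ccl9 ranked 94th of 6794 genes by likeness to Ccl6, and Ccl6 106th by likeness to Ccl9. The nearest of the chromosome neighbours Ccl3, Ccl4 and Ccl5 was Ccl3, 145th for Ccl9 (0.864) and 516th for Ccl6 (0.646). Ccl5 had 0.282 with Ccl9 and 0.036 with Ccl6. Of the other chemokines, Ccl7 was nearer to Ccl6 than Ccl3 was (369th, 0.706), but not to Ccl9 (451st, 0.728). Cxcl10 had a cosine of -0.15 with Ccl6 and 0.208 with Ccl9. The like genes were chosen by their values on these arrays, so their values are given with no test. Pltp averaged -3.05 ± 0.48 in untreated TAM over PEC (SD, n = 4), -4.05 ± 0.17 in TAM over PEC with LPS and 1.53 ± 0.37 for LPS in PEC (SD, n = 2 each). In untreated TAM over PEC, Mdm2 averaged -1.70 ± 0.29 and Fabp5 -2.93 ± 1.39 (SD, n = 4 each). Each of these genes had 1 feature on the arrays.

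**Figure D4:**
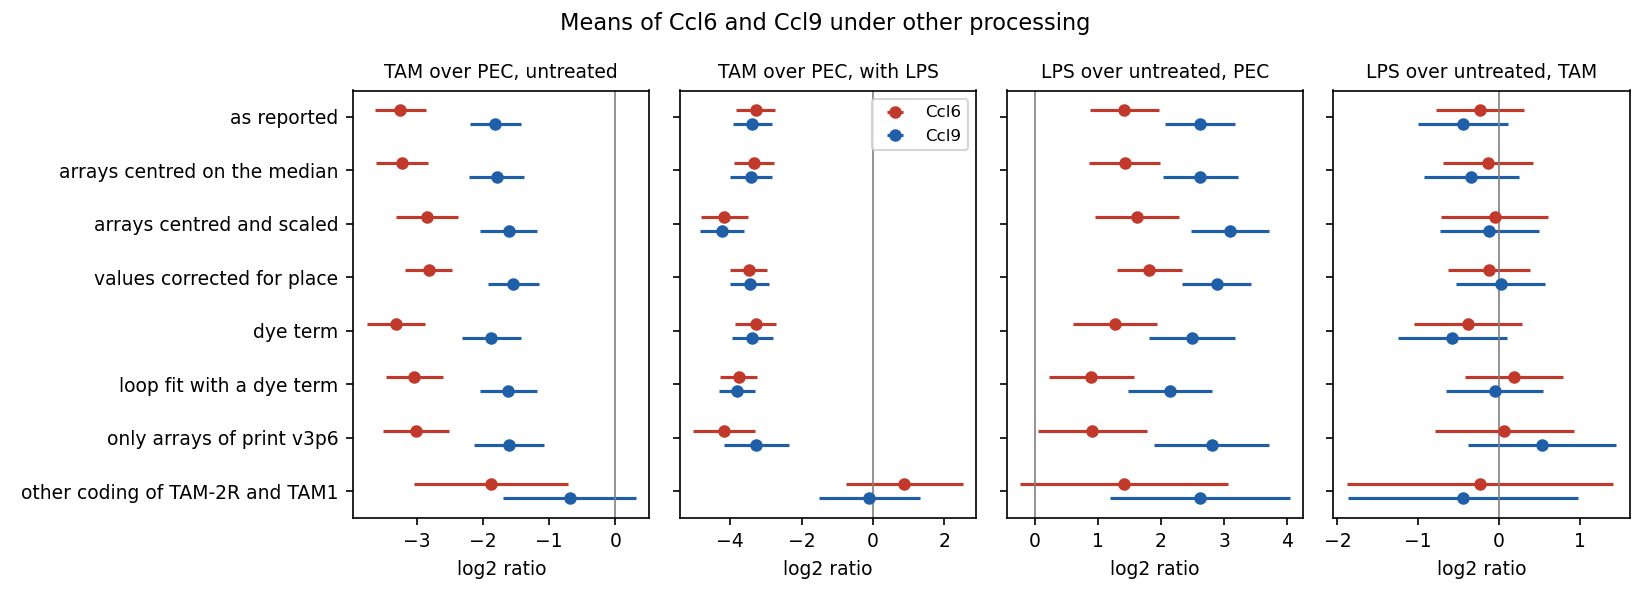
Means of Ccl6 (red) and Ccl9 (blue) in log2 ratios, with standard errors, in the 4 comparisons as reported and with 7 other ways of processing. With all but the other coding of TAM-2R and TAM1 both means stay below 0 in both TAM over PEC comparisons and above 0 for LPS in PEC, whereas those for LPS in TAM lie on either side of 0.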

How the data were processed

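The deposited values are log ratios, 1 for each feature of an array, and were treated as log2 because the largest absolute value was 11.687. The sources used here do not state the image analysis, background correction, normalization, dyes or log base. All 9596 features had a value on all arrays. Array medians lay between -0.199 and 0.022 and scaled median absolute deviations between 0.688 and 1.165. Channel intensities were not used here, so dim spots could not be filtered, and the number of arrays limits precision.

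Features were named with the platform table, those with several or no symbols stayed unnamed, and features of 1 gene were averaged, giving 8905 genes and features. Each comparison was fitted with limma 3.58.1 in R 4.3.3 (lmFit, eBayes) on all 10 arrays with 1 mean per comparison, 6 residual and 3.841 prior degrees of freedom. P-values are two-sided and Benjamini-Hochberg adjusted over all 8905, threshold 0.05. Where a comparison has 2 arrays, its spread is shared with the others. The fit was tested on simulated data. PEC1 was of print v1p1, TAM7, TAM-trial and TAM-8 of v9p2, and the remaining 6 of v3p6.

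Ccl6, Ccl9 and all gene lists were chosen with earlier results of these data known, so counts of called list members are descriptions. Named were the MIP-related CC chemokines (Ccl3, Ccl4, Ccl5, Ccl6 and Ccl9), chemokines and receptors past the threshold, the highest and lowest chemokine of each comparison, the 5 genes most like each member, and members past the threshold of the lists of interleukin 4 or colony-stimulating factor signalling and of cleavage enzymes. The lists of mast cells and eosinophils, of B and plasma cells, and of T and NK cells had medians of -0.41, -0.50 and -0.09 in untreated TAM over PEC and no member past the threshold in any comparison. Alternatives were the channel coding, centring, scaling, place on the array, a dye term, a loop fit, fewer arrays and leaving out each array. Promoters were compared with Biopython 1.88.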

Additional observations from a re-analysis of the deposited data

Results flagged for a closer look

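Among the 20 named genes, 4 had opposite signs of the LPS ratio in the cell types, with both arrays of TAM below 0 and both arrays of PEC above 0. The differences, TAM minus PEC on the log2 scale, were -2.16 for Pltp, -1.18 for EG385499, -1.98 for Ctsd and -2.77 for Retnla, and none passed limma's test of the difference (adjusted p from 0.719 to 0.838). Ccl6 and Ccl9 were not among them, because TAM-16 lay above 0 for both. Pltp, EG385499 and Ctsd were named for their likeness to Ccl6 on these same arrays, which bears on this count. The share of all tested features with such signs was not counted, so nothing is read from it.

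In untreated TAM over PEC, 1 array lay far from the other 3 for 2 genes by Dixon's test. Il17ra was at -2.64 on the exchanged array TAM-2R, and Retnla at -3.18 on TAM-b. Chance alone gives this for about 1 in 20 groups, and 20 genes were looked at. Neither Ccl6 nor Ccl9 had such an array.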

How the results depend on the processing

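Both genes kept the sign of their mean in untreated TAM over PEC and for LPS in PEC under every alternative run, and so did the difference of the LPS ratios, which passed under none of them. The coding of TAM-2R and TAM1 moved the means most. Left as deposited, they gave -1.89 for Ccl6 and -0.69 for Ccl9 in untreated TAM over PEC, and 0.88 and -0.10 with LPS. For TAM over PEC with LPS, Ccl6 passed with the arrays scaled (-4.16, adjusted p 0.0208), with values corrected for place (-3.49, adjusted p 0.0364) and in the loop fit with a dye term (-3.76, adjusted p 0.0102), and Ccl9 with the arrays scaled (-4.24, adjusted p 0.0135) and in the loop fit (-3.81, adjusted p 0.0102). These fits called 81, 16 and 131 of all features there, against 6. Adjusted p-values for that comparison lay between 0.0102 and 1 over the alternatives that kept all arrays or 1 print, and between 0.0518 and 0.645 without single arrays. The mean for LPS in TAM turned for Ccl6 in the loop fit (0.18) and within print v3p6 (0.069). For Ccl9 it turned with values corrected for place (0.0215) and within print v3p6 (0.54). Within that print TAM-16 is the only array of this comparison. Leaving out single arrays, the mean ranged from -0.54 to 0.069 for Ccl6 and from -1.42 to 0.54 for Ccl9. The upper ends are again the values of TAM-16 alone. The cause was not tested.

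Of the 23 chemokines other than Ccl6 and Ccl9, 0 were called in untreated TAM over PEC, and 1, Cxcl10, with values corrected for place. In TAM over PEC with LPS, 2 chemokines were called with the arrays scaled, 1 with values corrected for place and 4 in the loop fit (Ccl3, Ccl6, Ccl7 and Ccl9; Ccl7 is named after its value was seen). For LPS in PEC, 1 was called with values corrected for place, and 0 to 1 without single arrays. All features called in untreated TAM over PEC numbered 0 to 36 under the other alternatives and 6 to 24 without single arrays, against 41. For LPS in PEC they numbered 85 without PEC1 and 48 without PEC2, against 1. The cause was not tested. Pltp in TAM over PEC with LPS turned to 0.12 with the other coding. The calls of Ctsd and Ctsb were lost under most alternatives, with adjusted p up to 0.788, and that of Retnla with the other coding, on its own arrays and within print v3p6. Of the 5 genes most like each chemokine, as few as 1 stayed among the 5 with values corrected for place or without single arrays. The cosine of Ccl6 and Ccl9 lay between 0.846 and 0.912. Features were not tested singly, and Ccl6 and Ccl9 have 1 feature each. No paired analysis was possible because each array already sets 2 conditions against each other and the array numbers name no shared animal or day.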
